A study of Mus musculus with 11 samples.

Results

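The neurotrophins, their receptors and a neurotrophin-inducible peptide precursor were examined in the hippocampus of F1 mice. The 7 genes were Bdnf, Ntf3, Ngfr, Ntrk2, Ntrk3, Sort1 and Vgf, chosen by name after the Ensembl identifiers of the count tables had been matched to gene symbols of the GENCODE annotation of GRCm38. They are 7 of the 38293 genes in the tables, and all 7 passed the filter on low counts that left 20589 genes for testing. RNA-seq covered 6 CD and 5 FD F1 mice, all 14 weeks old. Their dams had been fed 2.3 mg (CD) or 40 mg (FD) folic acid per kg diet before mating, and dams of both groups received the control diet from mating on. All mice were wildtype hybrids of 129S6/SvEv dams and C57BL/6J sires. There were 3 male and 3 female CD mice, and 2 male and 3 female FD mice. The comparison of CD and FD mice asks whether a high folic acid intake of the mother before conception is accompanied by other transcript levels in the adult offspring. Each library came from 1 mouse, but the labels do not give the litter, and p-values measure the spread between these mice.

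Neurotrophins are secreted growth factors that are made as larger proforms and cut to the mature ligand. The mature ligands bind Trk receptor tyrosine kinases, with BDNF the main ligand of TrkB (encoded by Ntrk2) and neurotrophin 3 (Ntf3) that of TrkC (Ntrk3), whereas proforms bind the pan-neurotrophin receptor encoded by Ngfr together with sortilin (Sort1). In the hippocampus, Bdnf is known for its transcription in active neurons and for its role in synaptic plasticity, and Vgf encodes the precursor of secreted peptides and is induced by neurotrophins.

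Bdnf is transcribed from several start sites, each with its own first exon, and the gene count sums over all of them. RefSeq (GRCm38.p6) held 7 start sites for Bdnf, 2 for Ntf3, 1 for Ngfr and 1 for Ntrk2. The windows of Ntrk3, Sort1 and Vgf were not analysed here. Of these 11 windows of 250 bases before a start, 1 held TGACG or its complement CGTCA, the half-site of the cAMP response element, searched on both strands. Of the 32851 RefSeq windows of the same length, 17.8% held such a half-site and 1.55% the full element, in which TGACG is directly followed by TCA. The match lies in a Bdnf window and begins 35 bases before the start. This window is printed after that of the first Bdnf start, because the count per gene cannot tell their transcripts apart. Both are on the plus strand, 5′ to 3′, and capitals mark the half-site.
Bdnf, first start, chr2:109674450-109674699: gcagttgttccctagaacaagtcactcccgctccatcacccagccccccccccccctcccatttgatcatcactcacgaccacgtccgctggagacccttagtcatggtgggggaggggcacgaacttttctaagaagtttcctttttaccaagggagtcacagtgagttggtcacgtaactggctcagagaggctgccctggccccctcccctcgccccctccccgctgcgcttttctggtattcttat
Bdnf, start with the half-site, chr2:109692186-109692435: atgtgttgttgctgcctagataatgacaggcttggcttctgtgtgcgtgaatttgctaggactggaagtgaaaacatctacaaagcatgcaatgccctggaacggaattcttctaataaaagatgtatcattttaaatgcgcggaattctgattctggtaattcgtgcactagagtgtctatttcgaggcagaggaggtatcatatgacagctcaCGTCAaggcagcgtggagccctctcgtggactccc

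Total counts on genes ranged from 11737554 to 44447006 per mouse, with a median of 23493609 in CD and 21148672 in FD mice. With this depth 3 counts correspond to 0.0675 to 0.256 CPM (counts on a gene per 10 to the power 6 counts in the library) before scaling. The tissue expressed its defining genes. Snap25 (a synaptic protein of neurons) was at 2639 to 3129 CPM and Prox1 (a transcription factor of dentate granule cells) at 128 to 162.8 CPM. Of a list of genes of neighbouring brain regions, Chat, a gene of cholinergic neurons, lay between 0 and 0.143 CPM. Other genes of that list were present, with Prkcd at 27.5 to 36.6 CPM and Drd2 at 1.27 to 3.395 CPM. In 3 libraries (CD female 1, CD female 3 and FD female 3), 15.1% to 16.0% of the aligned reads had several alignments, against 13.7% to 14.5% in the other 8. All 3 were from females, and part of the group comparisons are also given without them. In whole tissue, fewer cells of a type and less RNA per cell cannot be told apart.

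The 7 genes spanned a wide range of levels. Per kilobase of annotated exon, Sort1 stood highest at 117.5 ± 3.35 CPM per kb (SD, n = 11), followed by Ntrk2 at 35.4 ± 2.41 and Vgf at 29.2 ± 5.74 CPM per kb. Bdnf reached 9.76 ± 0.650, Ntf3 5.27 ± 0.673, Ntrk3 2.73 ± 0.393 and Ngfr 0.490 ± 0.129 CPM per kb. The ranges over the 11 mice overlapped only between Ntrk2 and Vgf among neighbours in this order, and with the length of the longest coding transcript in place of all exons the order was the same and no neighbours overlapped. The lengths bear on these levels, since the annotated exons cover 19292 bp for Ntrk2 and 30170 bp for Ntrk3. Transcripts of the catalytic and the truncated forms of TrkB and TrkC, which the annotation lists among 10 transcripts of Ntrk2 and 20 of Ntrk3, are summed in the gene counts. The genes also differed in how far their measured CPM varied between mice. The coefficient of variation of the CPM over all 11 mice was 2.85% for Sort1, 6.66% for Bdnf, 6.81% for Ntrk2, 12.8% for Ntf3, 14.4% for Ntrk3, 19.7% for Vgf and 26.4% for Ngfr, beside a median of 9.16% over the 14437 genes averaging 1 CPM or more. Of those genes, 0.575% varied less than Sort1. These coefficients and their median include the spread of counting, which weighs more at low counts and was not separated out. Ngfr had 19 to 92 counts per mouse and Sort1 10585 to 39674. In the 8 libraries with the lower share of reads with several alignments, Ntrk3 fell to 4.45%, Ntrk2 to 2.34% and Bdnf to 4.63%. Sort1 was then at 2.39%, Ntf3 at 12.45%, Vgf at 19.8% and Ngfr at 29.2%.

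**Figure D1:**
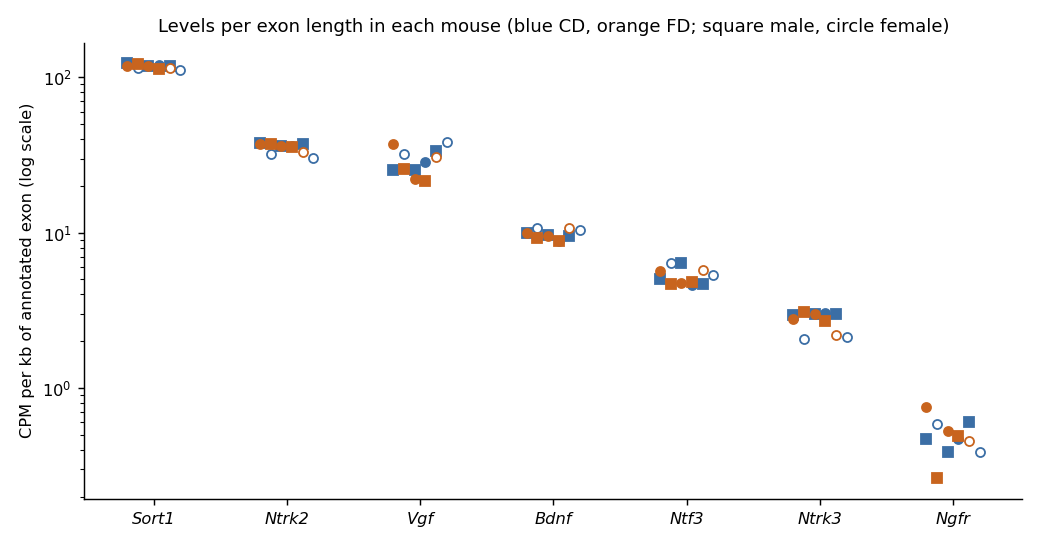
Levels of the 7 genes in each mouse, in CPM per kb of annotated exon on a log scale (blue CD, orange FD, squares males, circles females, open symbols the 3 libraries in which over 15% of the aligned reads had several alignments). Sort1 lies above 112 CPM per kb and Ngfr below 0.751 CPM per kb in every mouse.

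No difference between CD and FD mice was detected for any of the 7 genes. In the edgeR quasi-likelihood test 0 of 7 passed an adjusted p of 0.1 and 0 of 7 had an unadjusted p under 0.05, with DESeq2 also calling 0 of 7. The background was 14 of 20589 genes called, or 0.0680%, all of them higher in FD mice, and 534 genes with an unadjusted p under 0.05. The CPM of CD and FD mice overlapped for all 7 genes, while 104 of 20589 genes (0.505%) did not overlap. The log2 fold change of FD against CD was above 0 for 3 and below 0 for 4 of the 7, with a median of -9.9e-05 beside -0.0040 over all genes tested. With mice of the same sex and number as a block, 25 genes were called, again 0 of the 7. Since so few genes were called, each of the 7 is given with the interval of its difference.

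Bdnf (Ensembl ENSMUSG00000048482, chr2:109674700-109727007, plus strand), the ligand of TrkB, lay between 55.3 and 66.3 CPM in CD mice (median 61.0). The FD values were 62.1, 57.4, 59.1, 54.9 and 66.5 CPM (female 1, male 1, female 2, male 2 and female 3). The highest and the lowest value were both from FD mice, and 3 of 5 FD values lay within the CD range. The means were 61.2 ± 3.99 (SD, n = 6) and 60.0 ± 4.46 CPM (SD, n = 5), a log2 fold change of -0.028 (SE 0.060, 95% interval -0.16 to 0.099, edgeR adjusted p = 1). The interval corresponds to an FD level of 0.898 to 1.07 times the CD level (exact permutation test of the mean log2 CPM, two-sided, p = 0.623). An antisense gene, Gm45346, covers 14.4% of the annotated exon bases of Bdnf, and since the strand setting of the counting is not stated, reads of these genes cannot be told apart.

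Ntf3 (ENSMUSG00000049107, chr6:126101412-126166910, minus strand), the ligand of TrkC, was measured with 93 to 353 counts per mouse. It ranged from 7.94 to 10.96 CPM in CD mice (median 8.88) and was 9.65, 7.95, 8.15, 8.27 and 9.85 CPM in FD mice in the same order. All 5 FD values lay within the CD range. The means of 9.25 ± 1.37 (SD, n = 6) and 8.77 ± 0.902 CPM (SD, n = 5) gave a log2 fold change of -0.069 (SE 0.11, 95% interval -0.29 to 0.16, edgeR adjusted p = 1, exact permutation p = 0.554).

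Vgf (ENSMUSG00000037428, chr5:137026392-137033351, plus strand) encodes the peptide precursor. It spanned 75.0 to 114.4 CPM in CD mice (median 90.5) and was 110.1, 76.5, 66.3, 63.8 and 91.4 CPM in FD mice. FD female 2 and FD male 2 lay below every CD mouse, while the other 3 FD mice lay within the CD range. The means were 90.9 ± 15.5 (SD, n = 6) and 81.6 ± 19.3 CPM (SD, n = 5), and the log2 fold change of -0.15 had an SE of 0.13 and a 95% interval from -0.43 to 0.14 (edgeR adjusted p = 1, exact permutation p = 0.346). Without the 3 libraries above 15% it was -0.062 (SE 0.14, n = 4 in each group, edgeR adjusted p = 0.9998).

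Ntrk2 (ENSMUSG00000055254, chr13:58806569-59133970, plus strand), which encodes the BDNF receptor TrkB, ranged from 587 to 728 CPM in CD mice with a median of 693. In FD mice it was 723, 722, 696, 690 and 639 CPM, all within the CD range. The lowest value of each group came from the libraries above 15%. The log2 fold change was 0.041 (SE 0.060, 95% interval -0.086 to 0.17, edgeR adjusted p = 1), so that the interval allows an FD level of 0.942 to 1.12 times the CD level (exact permutation p = 0.515). The value was 0.0043 without the 3 libraries (SE 0.041, 95% interval -0.083 to 0.092).

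Ntrk3 (ENSMUSG00000059146, chr7:78175959-78738012, minus strand), which encodes TrkC, fell into separate levels within both groups. In CD mice it was 62.8 and 64.6 CPM in females 1 and 3 and between 89.0 and 91.3 CPM in the other 4. In FD mice it was 83.7, 93.5, 89.9, 82.0 and 66.2 CPM, with the low value in female 3. The 3 low values were those of the 3 libraries above 15%. The log2 fold change of FD against CD was 0.026 (SE 0.11, 95% interval -0.21 to 0.26, edgeR adjusted p = 1, exact permutation p = 0.935). Without those libraries it was -0.044 (SE 0.049, 95% interval -0.15 to 0.060).

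Ngfr (ENSMUSG00000000120, chr11:95568818-95587735, minus strand) encodes the pan-neurotrophin receptor and was the lowest of the 7, with 19 to 92 counts per mouse. It ranged from 1.32 to 2.08 CPM in CD mice (median 1.62) and was 2.59, 0.904, 1.83, 1.70 and 1.57 CPM in FD mice. The highest and the lowest value were both from FD mice. The log2 fold change of 0.035 had an SE of 0.22 and a 95% interval from -0.42 to 0.50 (edgeR adjusted p = 1, exact permutation p = 0.970). At this depth an FD level between 0.745 and 1.41 times the CD level lies within the interval.

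Sort1 (ENSMUSG00000068747, chr3:108284082-108361511, plus strand) encodes sortilin, a sorting receptor that takes part in the routing of proBDNF and serves as co-receptor for proforms. It ranged from 848 to 931 CPM in CD mice with a median of 893. In FD mice it was 891, 925, 893, 863 and 874 CPM, all within the CD range. The means of 889 ± 29.0 (SD, n = 6) and 889 ± 23.7 CPM (SD, n = 5) gave the narrowest interval of the 7, with an FD level of 0.939 to 1.06 times the CD level (edgeR adjusted p = 1, exact permutation p = 0.987). An antisense gene, Gm12523, covers 4.47% of its annotated exon bases and had 7 counts over all mice. The exact test of each gene was two-sided over 462 splits of the mice, and the smallest p it allows is 0.0043.

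**Figure D2:**
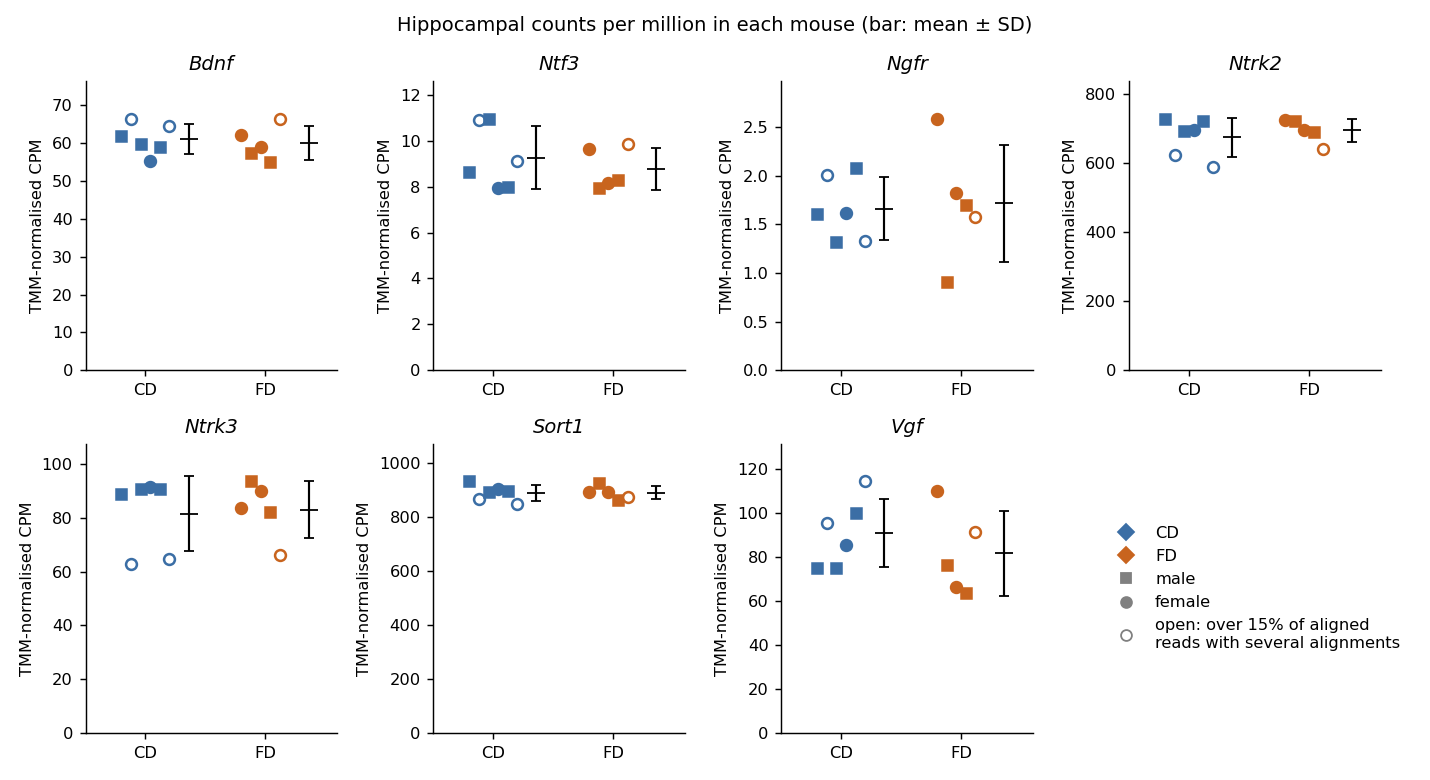
CPM of the 7 genes in each CD (blue) and FD (orange) mouse, with squares for males, circles for females and open symbols for the 3 libraries in which over 15% of the aligned reads had several alignments; bars give the mean ± SD. The groups overlap for every gene, and the open symbols lie lowest for Ntrk3 (62.8 to 66.2 CPM) and Ntrk2 (587 to 639 CPM).

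Markers of adjoining tissue were read beside these values. All 9 genes of the meningeal fibroblast list had a log2 fold change above 0 (median 0.43), 0 of 9 passed the test and their summed level was 91.1 to 222 CPM in CD and 122.5 to 374 CPM in FD mice. Of the choroid plexus list 3 of 9 genes were above 0, and its sum was 36.1 to 90.5 CPM in CD and 31.4 to 44.7 CPM in FD mice. Its defining gene Ttr reached 54.7 CPM in CD and 14.4 CPM in FD mice, and Otx2 lay between 0.0853 and 1.06 CPM. Of the list of neighbouring brain regions 11 of 15 genes were above 0 and 0 passed the test. Its sum was 150.3 to 173 CPM in CD and 153 to 208 CPM in FD mice. Of all genes tested, 48.2% were above 0. The part of these 3 lists in the values of the 7 genes was not tested.

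Between the sexes, 0 of 7 genes passed an adjusted p of 0.1 with diet as covariate, and 3 of 7 had an unadjusted p under 0.05. Over all genes 1257 of 20589 (6.11%) were called, 633 higher and 624 lower in males, and 4173 of 20589 had an unadjusted p under 0.05. Males and females overlapped in CPM for all 7 genes, against 366 of 20589 genes (1.78%) that did not overlap. The 3 genes were Ntrk3, Ntrk2 and Vgf.

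Ntrk3 was 82.0 to 93.5 CPM in the 5 males and 62.8 to 91.3 CPM in the 6 females (median 75.0). The female values fell into a low set of 3 and a set of 83.7 to 91.3 CPM that overlapped the males. The log2 fold change of males against females was 0.24 (SE 0.092, 95% interval 0.047 to 0.43, edgeR adjusted p = 0.15). Without the 3 libraries above 15%, all female, it was 0.0063 (SE 0.055, 95% interval -0.11 to 0.12, edgeR adjusted p = 0.99).

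Ntrk2 was 690 to 728 CPM in males and 587 to 723 CPM in females, a log2 fold change of 0.11 (SE 0.052, edgeR adjusted p = 0.23). Without the 3 libraries it was 0.014 (SE 0.045, edgeR adjusted p = 0.97). Vgf was 63.8 to 99.9 CPM in males and 66.3 to 114.4 CPM in females, and its log2 fold change of -0.29 (SE 0.11, edgeR adjusted p = 0.15) was -0.22 (SE 0.14, edgeR adjusted p = 0.77) without them. Bdnf had a log2 fold change of -0.095 (SE 0.056, edgeR adjusted p = 0.36) and of -0.014 without them. The values for Ntf3 (-0.13, SE 0.10), Ngfr (-0.28, SE 0.21) and Sort1 (0.036, SE 0.041) did not pass either. Without the 3 libraries Ntf3 was at -0.024 (SE 0.13) and Sort1 at 0.0050 (SE 0.044). Ngfr then lay farther from 0, at -0.50 (SE 0.27, edgeR adjusted p = 0.75).

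The calls between the sexes changed when certain single mice, or the filter on low counts, were left out. Without CD female 2, Ntrk3 (edgeR adjusted p = 0.023), Vgf (edgeR adjusted p = 0.064) and Bdnf (edgeR adjusted p = 0.088) passed the threshold, and without FD female 2, Ntrk3 (0.059) and Vgf (0.045) did. With no filter on low counts Ntrk3 and Vgf passed as well, with edgeR adjusted p of 0.0025 and 0.00012. With either of these mice left out, 3 of the remaining 5 females were from the 3 libraries above 15%. That was also so without FD female 1, where Ntrk3 (edgeR adjusted p = 0.16) and Vgf (edgeR adjusted p = 0.28) did not pass. The part of these libraries in the changed calls was not tested. The number of genes called between the sexes over the whole table moved from 18 to 3244 as single mice were left out and was 13 without the 3 libraries.

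The difference between FD and CD mice was not shown to depend on sex for any of the 7 genes. The interaction coefficient (the FD against CD change in males minus that in females) was below 0 for all 7, ranging from -0.73 (SE 0.42) for Ngfr to -0.040 (SE 0.087) for Sort1, and each had an edgeR adjusted p of 1. None of the 7 had an unadjusted p under 0.05. Over all genes 0 of 20589 (0%) were called, 391 had an unadjusted p under 0.05, 44.9% of coefficients were above 0 and DESeq2 also called 0. The 7 coefficients share mice and libraries, and only 2 FD males entered them.

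**Figure D3:**
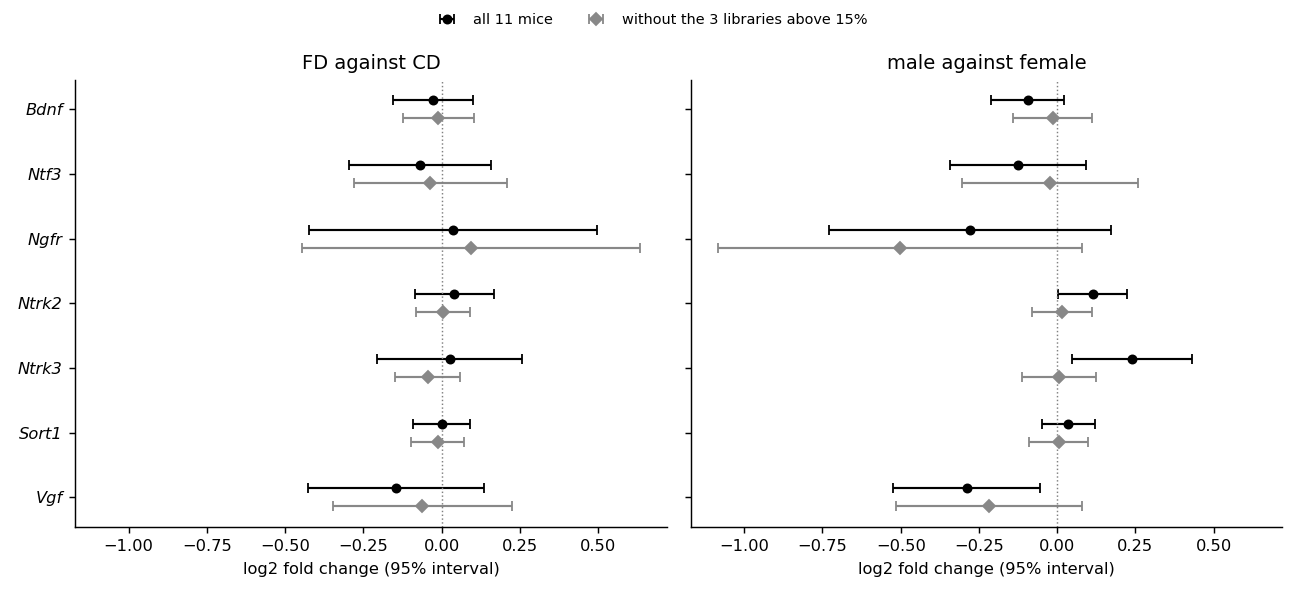
Log2 fold changes of the 7 genes with 95% intervals, for FD against CD mice (left) and males against females (right), in all 11 mice (black circles) and without the 3 libraries above 15% (grey diamonds). Without those libraries the male against female value of Ntrk3 is 0.0063 in place of 0.24.

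The 3 libraries with a share above 15% stood apart for 3 of the 7 genes. Ntrk3 was 62.8 to 66.2 CPM in them and 82.0 to 93.5 CPM in the other 8 libraries, and Ntrk2 was 587 to 639 against 690 to 728 CPM. Bdnf was higher in them, at 64.6 to 66.5 against 54.9 to 62.1 CPM. Ntf3, Vgf, Sort1 and Ngfr overlapped. The split was made after the values had been seen, and the difference is given without a test. How many of all genes tested do not overlap along this split was not counted. The 3 of 7 therefore cannot be read as particular to these genes. Marker sums differed along the same split. The astrocyte list (9 genes) summed to 4846 to 5237 CPM in the 3 libraries and to 5299 to 5610 CPM in the other 8, and the endothelial and mural list (10 genes) to 255.5 to 284.9 against 296.8 to 378 CPM, both without overlap. The microglia list (9 genes) was higher, at 382.9 to 400 CPM against 333.1 to 379.2 CPM, and so was the CA2 and CA3 pyramidal list (9 genes), at 1118 to 1186 against 937.8 to 1022 CPM. That last sum rests largely on Chgb, with 180981 counts over all mice against 31751 for Rgs14, the next gene of the list. Chgb is also among the pathway genes of processing and release described below. The other 8 marker lists overlapped, among them the neuron list (9 genes) at 9338 to 9616 against 8622 to 9430 CPM. Their part in the levels of Ntrk3, Ntrk2 and Bdnf was not tested. No male had a share above 15%. Of the females below 15%, CD female 2, FD female 1 and FD female 2 had 91.3, 83.7 and 89.9 CPM of Ntrk3, within the range of the males.

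**Figure D4:**
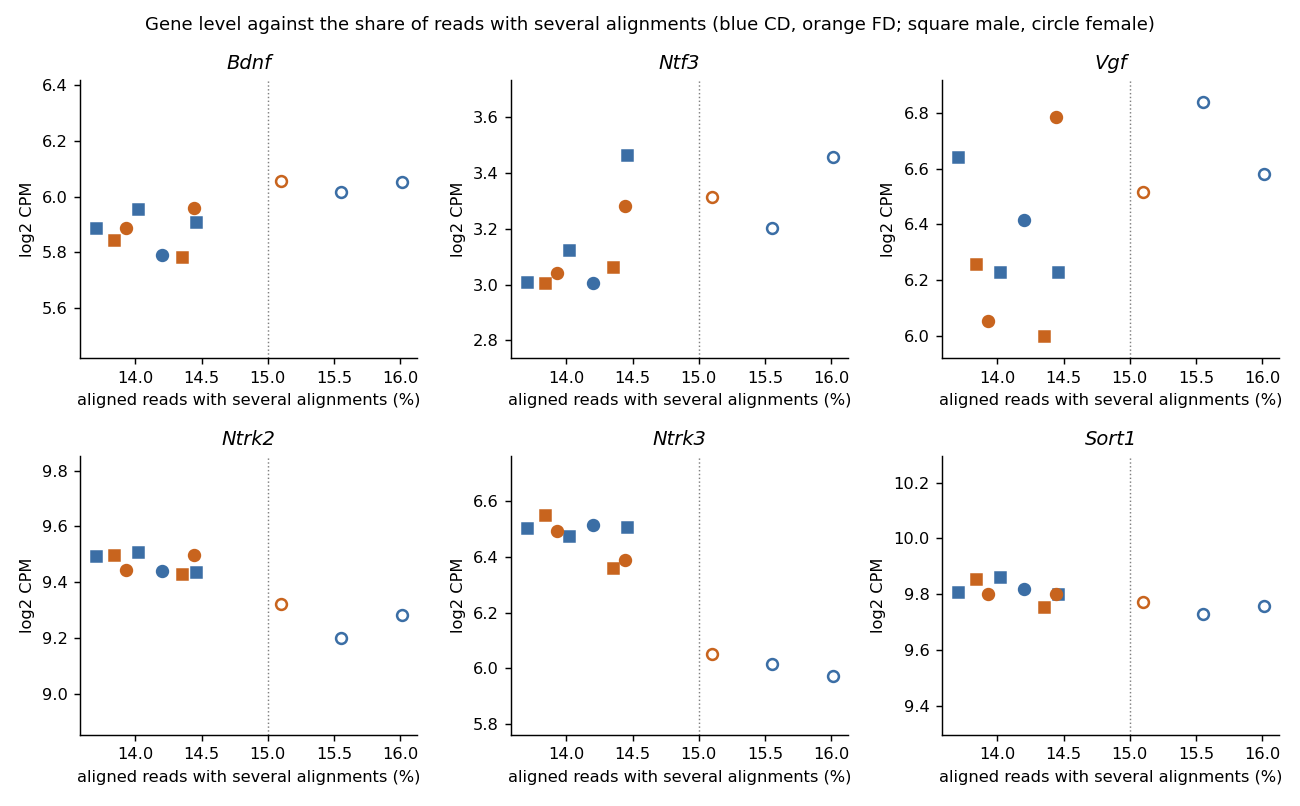
Log2 CPM of 6 of the 7 genes against the percentage of aligned reads with several alignments, 1 point per mouse (blue CD, orange FD, squares males, circles females, open symbols above 15%); every panel spans the same height of 1 log2 unit. The open symbols lie below all others for Ntrk3 and Ntrk2 and above all others for Bdnf.

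Variation of the 7 genes from mouse to mouse was compared in the 8 libraries below 15%. For Ntrk3, Ntrk2 and Bdnf the 3 libraries above 15% did not overlap these 8. Of the 21 pairs, 0 had an adjusted p under 0.1 there. Over all 11 mice it was 5 of 21, namely Bdnf with Ntf3, Ntrk2 with Ntrk3, Ntrk2 with Sort1 and Ntrk3 with Sort1 in the same direction and Bdnf with Ntrk3 in opposite directions. The closest pairs were Ntrk3 with Sort1 (Pearson r = 0.675, exact permutation p = 0.068, adjusted 0.57, Spearman rho = 0.476, n = 8) and Ntrk2 with Sort1 (r = 0.661, exact permutation p = 0.086, adjusted 0.57, rho = 0.690, n = 8). Bdnf and its receptor gene Ntrk2 had r = 0.621 (exact permutation p = 0.11, adjusted 0.57, rho = 0.643, n = 8), whereas over all 11 mice, where the 3 libraries were low for Ntrk2 and high for Bdnf, the sign was negative and the pair did not pass. Ntf3 and its receptor gene Ntrk3 had r = -0.185 (exact permutation p = 0.72, adjusted 0.94, rho = -0.548, n = 8).

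The genes whose log2 CPM followed each of the 7 most closely over the 11 mice, among 14436 others averaging 1 CPM or more, were searched without a test. For Bdnf they were Arl8a, Coro1c and Hsbp1 (r = 0.971, 0.956 and 0.862 in the 8 libraries below 15%). For Ntrk2 they were Raph1, Adgrl3 and Grin2a (0.672, 0.917 and 0.594 in the 8 libraries), and for Ntrk3 Kctd16, Mmp16 and Gprin3 (0.945, 0.843 and 0.818). For Vgf they were Pcsk1n, Srebf1 and Fbxo31, with r = 0.986, 0.970 and 0.969 over 11 mice and 0.987, 0.962 and 0.958 over 8. Pcsk1n encodes a secretory granule protein that inhibits a prohormone convertase. For Sort1 they included Heatr1 and Wdr7 (r = 0.956 and 0.936 over 11 mice), and they were for Ntf3 Pld4, P2rx4 and Lag3 (0.918, 0.910 and 0.894) and for Ngfr Crat, Sp8 and Ecscr (0.876, 0.870 and 0.846). All points share the depth and the makeup of their library, and highest values picked from so many genes are high by selection.

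The other genes of the pathway were described by role, as 107 genes in 5 lists of which 106 passed the filter on low counts. Between CD and FD mice 0 of 106 passed the test and 0 had an unadjusted p under 0.05, against 0.0680% and 534 of 20589 over all genes. Of the 106, 42 were above and 64 below 0, with a median of -0.021. All genes tested had a median of -0.0040, with 48.2% of them above 0. Among the other ligands, Ntf5, Gdnf and Cntf had at most 8 counts in any mouse. The 2 ligands with the smallest p, Cntf (-0.56, SE 0.48) and Ntf5 (-0.32, SE 0.46), belong to these sparse genes. Among 11 other receptors, 4 were above and 7 below 0, and the smallest p were those of Sorcs3, a sortilin relative (0.092, SE 0.054), and Lingo1, a partner of the pan-neurotrophin receptor (-0.14, SE 0.093).

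Of 16 tested genes of processing and release, 6 were above and 10 below 0, and the smallest p belonged to the proprotein convertase genes Pcsk5 (log2 fold change -0.12, SE 0.082) and Furin (-0.094, SE 0.069). The 49 signalling genes divided into 26 above and 23 below 0 (median 0.0071), with Rps6ka1 (0.12, SE 0.061), a kinase downstream of ERK, and Hras (-0.13, SE 0.091) first by p. The 26 genes induced by activity or BDNF were above 0 in 6 and below 0 in 20 cases, with a median of -0.092, and 0 of 26 passed the test. Over all genes tested 48.2% were above 0, and the 26 share mice and libraries, so their directions are not independent. The genes of this list with the smallest p were the transcription factor genes Junb (log2 fold change -0.30, SE 0.16) and Fosb (-0.20, SE 0.12), both with an edgeR adjusted p of 1. Without the 3 libraries above 15% they were -0.13 and -0.065. With mice of the same sex and number as a block, Arc, an immediate early gene of synapses, passed (log2 fold change -0.29, edgeR adjusted p = 0.054), whereas without the block it was -0.23 (SE 0.14, edgeR adjusted p = 1). Of the marker lists, the meningeal genes Ogn (0.61) and Spp1 (1.18) and the choroid plexus genes Ttr (-1.28) and Clic6 (-0.95) also passed under the block, with edgeR adjusted p between 0.0014 and 0.068. Whether a number pairs mice is not known, so these calls rest on an assumed block.

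Between the sexes 20 of the 106 pathway genes passed the test, 7 higher and 13 lower in males, against 6.11% of all genes. Without the 3 libraries above 15%, 1 of 106 passed, and calls over the whole table also fell, from 1257 to 13 genes. Cell type markers moved between the sexes in the same fit, in both directions. Lower in males were 3 of 9 microglia, 2 of 9 neuron and 1 of 9 CA2 and CA3 pyramidal genes. Of 10 interneuron genes 3 were lower and 1 higher (Npy and Sst are also among the activity-induced genes), and of 9 astrocyte genes 1 was lower and 1 higher. Of 11 oligodendrocyte lineage genes 10 were below 0, of which 1 passed. Above 0 were 7 of 9 meningeal fibroblast genes, of which 1 passed, and 8 of 10 endothelial and mural genes, of which 0 passed. None (0) of these passed without the 3 libraries, and their part in the pathway values was not tested. Among the receptors, Rtn4r (-0.31, edgeR adjusted p = 0.072), the Nogo receptor gene, and Lingo1 (-0.25, edgeR adjusted p = 0.084) were lower in males. Of the processing genes, Pcsk1 (0.31, edgeR adjusted p = 0.081), a prohormone convertase, was higher and Chga (-0.26, edgeR adjusted p = 0.064), a granin, lower in males. Of the signalling genes 5 were higher and 1 lower, the smallest p being those of Frs2 (0.20), a docking protein of Trk receptors, and Braf (0.20). Among the activity-induced genes 1 was higher and 9 lower, with Homer1 (0.33, edgeR adjusted p = 0.020), a scaffold of the postsynaptic density, and Npy (-0.48, edgeR adjusted p = 0.034), a neuropeptide of interneurons, first by p. Npas4, an activity-dependent transcription factor gene, was the 1 gene that also passed without the 3 libraries, with a log2 fold change of -0.74 in all mice (edgeR adjusted p = 0.049) and -0.84 in the other 8 (edgeR adjusted p = 0.0098); it is named here because it was the single remaining call. Among the other ligands, Ntf5 (-0.42, SE 0.46) did not pass.

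**Figure D5:**
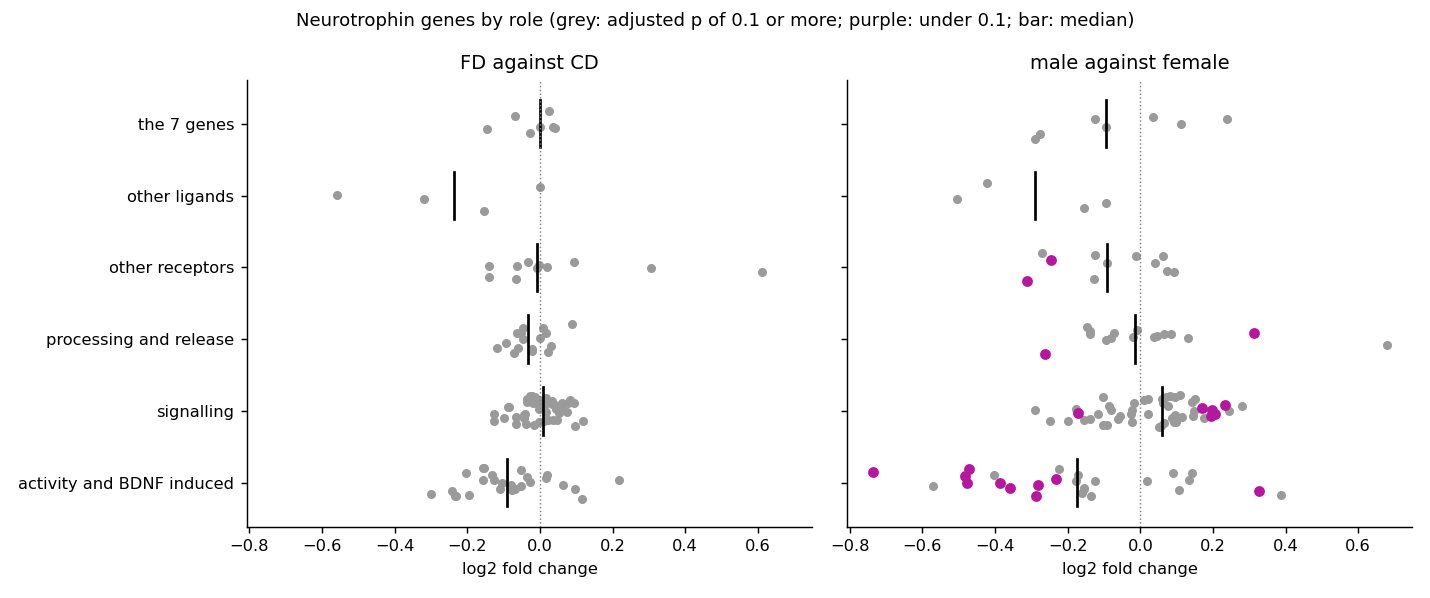
Log2 fold changes of the 7 genes and of 106 other neurotrophin genes by role, for FD against CD (left) and males against females (right) in all 11 mice; purple points have an edgeR adjusted p under 0.1, grey points do not, and bars are the median of each list. No point is purple for FD against CD, and 20 are for males against females, 1 of which passes without the 3 libraries above 15%.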

How the data were processed

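Hippocampal RNA of 11 F1 mice was sequenced, and the authors deposited raw read counts per Ensembl gene for each mouse. After trimming, the authors had used STAR for alignment to GRCm38 (mm10) and counted uniquely aligned reads. The methods name featureCounts, while the last lines of the tables look like those of HTSeq. The annotation release and strand setting are not given in the sources used here. Reads with several alignments are therefore missing from the counts. Symbols were taken from GENCODE (95.1% of identifiers matched).

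Counts were tested in R 4.3.3 with edgeR 4.0.16 (TMM, a minimum of 10 counts summed over mice, quasi-likelihood test, Benjamini-Hochberg adjustment over 20589 genes, threshold 0.1). FD was compared with CD without covariates, the sexes with diet as covariate, and the interaction with both. Values per mouse are TMM-normalised CPM, with a prior count of 2 on the log2 scale. Standard errors are the log2 fold change divided by the root of the F statistic. Levels per length divide CPM by annotated exon length. Exact permutation tests and figures were made with Python 3.11.15, scipy 1.17.1 and matplotlib 3.10.9. Groups, sexes and numbers came from the labels. Mice of the same sex and number deviated together from their group means in all 5 pairs (r = 0.31 to 0.54). These values include shared sex and so cannot show that the numbers pair the mice. A fit with mice of the same sex and number as replicate block was run beside the unblocked one. CD male 3 had no FD mouse of its sex and number. Pairs of the same sex but different number ran from -0.063 to 0.53. The labels do not say what a number marks, and with sex means removed as well 2 of 5 pairs were above 0.1 (0.0051 to 0.39).

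The members, the pathway and marker lists and the tests were chosen with earlier results of these data known. Named were the 7 genes, per pathway list the 2 genes with the smallest p, per member the 3 genes with the highest Pearson correlation, and other genes where a call rests on them. Alternatives were DESeq2 1.42.0 (fold changes shrunken by a prior or not), its size factors (RLE), no count filter, filterByExpr, sex as covariate, the block, males or females only, and leaving out 1 mouse at a time. Leaving out the 3 libraries above 15% and the share of reads with several alignments as a covariate were chosen after seeing the data. Of 107 other pathway genes, Plg had too few counts to be tested. Values of some genes that the rule would name are not reported here.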

Additional observations from a re-analysis of the deposited data

How the results depend on the processing

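None of the 7 genes passed the threshold for FD against CD under any of the 22 alternatives run, and none for the interaction under DESeq2. Directions near 0 turned. For Sort1, whose log2 fold change was -9.9e-05, it was 0.0064 with DESeq2 without a prior and with RLE size factors, 0.0057 with DESeq2 with a prior, 0.0039 with no count filter, 0.013 with filterByExpr, 0.0038 with sex as covariate, 0.0025 with the replicate block and 0.022 in females only. For Ntrk3 it was -0.044 without the 3 libraries above 15%, -0.057 with the share as covariate and -0.018 in males only, for Bdnf 0.00090 with the share as covariate and 0.010 in females only, and for Ngfr -0.035 with sex as covariate and -0.45 in males only. Leaving out 1 mouse at a time, the log2 fold change ran from -0.015 to 0.014 for Sort1, from -0.041 to 0.099 for Ntrk3, from -0.068 to 0.0048 for Bdnf and from -0.21 to 0.20 for Ngfr, and with no change of direction from -0.27 to -0.069 for Vgf, from -0.12 to -0.0099 for Ntf3 and from 0.0043 to 0.069 for Ntrk2. The lowest adjusted p of any of the 7 genes over these alternatives was 0.76, for Vgf with the replicate block.

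The number of all genes called between FD and CD, 14, was 8 with filterByExpr, 4 without the 3 libraries, 23 with the share as covariate, 25 with the replicate block, 2 in males only, 1 in females only, and from 3 to 12 with 1 mouse left out, lowest without FD female 1 and without FD female 3. The block changed no call among the 7 genes and, of the listed genes, those named above.

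Between the sexes, the calls among the 7 genes were 2 with no count filter and from 0 to 3 with 1 mouse left out. The number of all genes called, 1257, was 2043 with DESeq2, 2645 with no count filter, 13 without the 3 libraries and 9 with the share as covariate, and from 18 (without CD male 1) to 3244 (without CD female 2) with 1 mouse left out. With the share as covariate the log2 fold change of Ntf3 turned to 0.074 and that of Sort1 to -0.00035. The cause of these changes was not tested. Ngfr, with 19 to 92 counts per mouse, is the member whose depth limits it most.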
